A study of Bos taurus with 9 samples.

Results

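The genes of cholesterol synthesis and sterol sensing were followed in bovine granulosa cells after calving. They were taken from a list of 34 symbols that covers the enzymes from acetyl-CoA to cholesterol, the SREBP machinery that senses sterols, and the proteins that carry sterols between membranes. In 2 cases an older and a newer symbol name the same gene (SC4MOL and MSMO1, SC5DL and SC5D), which leaves 32 genes. On the array, 31 of them had a probe under a listed symbol, and ERG28 had 1 under an older symbol. Together they had 58 of the 43794 probes. For 31 genes, 55 probes passed the filter on dim spots, beside 14229 genes and 38644 probes over the whole array. The gene left out was NPC1L1, the sterol importer of the gut, whose probe lay above background on 0 of 9 arrays in either channel. Genes were taken by symbol, and the list was chosen with earlier results of these data known.

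Granulosa cells line the ovarian follicle and make oestradiol. Those measured here came from dominant follicles of Holstein-Friesian cows and were aspirated 42 hours after an injection of prostaglandin F2alpha, which all groups received. The groups were cells taken at 30, 60 and 90 days after calving, with 3 biological replicates each, and cells taken at 120 days, the baseline of the design. Each of 9 two-colour arrays carried RNA of 1 earlier day in Cy5 and 120-day RNA in Cy3, and no array had the dyes exchanged, so that a dye effect of a probe cannot be told apart from its difference against 120 days. The RNA had been amplified in 2 rounds before labelling, and the labels give no cell sort and no ages of the cows.

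Cholesterol is built from acetyl-CoA through mevalonate, isoprenoid diphosphates, squalene and lanosterol. When sterols in the endoplasmic reticulum run low, SCAP escorts the SREBP precursors, encoded by SREBF1 and SREBF2, to the Golgi, where the proteases encoded by MBTPS1 and MBTPS2 release the active factors. These switch on the genes of the enzymes, and INSIG1 with them. When sterols are ample, the INSIG proteins hold SCAP back. In the follicle, cholesterol is the starting material of all steroids. Before ovulation, granulosa cells lie behind a basal lamina that lets high-density lipoprotein pass but keeps most low-density lipoprotein out.

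Of all probes, 29.8% to 82.3% lay above the negative control spots in Cy5 and 20.9% to 84.2% in Cy3. The lowest share in Cy5 was that of replicate 1 of 30 days, and the lowest in Cy3 that of replicate 3 of 60 days. None of the 1044 spots of the sterol probes was saturated (0). By the correlation of their Cy3 levels, the arrays fell into 3 sets, each with 1 array of every day, which are taken to share a 120-day RNA. The first set, called A here, joined the 30-day and 60-day arrays of replicate 1 with the 90-day array of replicate 2. In set B the replicates were the other way round, with replicate 2 of the earlier days beside replicate 1 of the 90-day arrays. The remaining arrays, all of replicate 3, formed set C. Over 38644 probes, r was 0.968 to 0.992 within sets and 0.886 to 0.957 between sets. The 3 comparisons with 120 days share these RNAs.

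The cells were checked against 14 granulosa markers, of which 8 lay above background in Cy5 on all 9 arrays, among them CYP19A1 (aromatase), FSHR and INHA. On the 30-day arrays, in the order of the replicates, their median log2 ratio (day over 120 days) was 0.41, -1.18 and -0.56. The 60-day arrays gave 0.74, 1.50 and 1.29, and the 90-day arrays -0.92, 0.64 and 0.24. For 14 measured macrophage and monocyte markers, the 30-day arrays gave medians of -1.32, 2.48 and 1.91, the 60-day arrays -0.98, -0.12 and -0.46, and the 90-day arrays 2.21, 0.56 and 0.40. Replicates 2 and 3 of 30 days and replicate 1 of 90 days thus stood highest in macrophage markers and lowest in granulosa markers, and are called the arrays of high macrophage markers. Their macrophage markers stood above 0 for 14, 13 and 13 of 14 genes. In Cy5, the summed log2 level of the macrophage markers ran from 12.87 to 17.41 at 30 days, from 13.01 to 14.48 at 60 days and from 15.33 to 17.09 at 90 days, against 14.84 to 15.86 in the 120-day channel. None of these 14 markers (0) lay under background on every array. On replicate 1 of 30 days, 6 of these 14 markers lay above background in Cy5, against 13 or 14 on the other arrays.

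Across the arrays, many enzymes of cholesterol synthesis were lowest on the same 3 arrays. HMGCS1, the cytosolic synthase that makes HMG-CoA, had log2 ratios of 0.26, -2.07 and -2.59 on the 30-day arrays, 0.99, 1.26 and 1.96 on the 60-day arrays, and -2.60, 0.15 and -0.97 on the 90-day arrays. The replicates of 30 and of 90 days thus lay on both sides of 0, and those of 60 days all above it. Of the 31 sterol genes, 12 (38.7%) had their 3 lowest ratios on replicates 2 and 3 of 30 days and replicate 1 of 90 days, against 4.58% of all genes tested. The 12 were ACAT2, HMGCS1, IDI1, FDPS, FDFT1, SQLE, LSS, CYP51A1, MSMO1, DHCR7, INSIG1 and MBTPS1. LBR (1 of 31) had its 3 highest ratios there, against 7.98% of all genes. The part of the macrophage and granulosa content in these ratios was not tested, and in RNA of mixed cells fewer granulosa cells and less RNA per cell cannot be told apart.

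**Figure D1:**
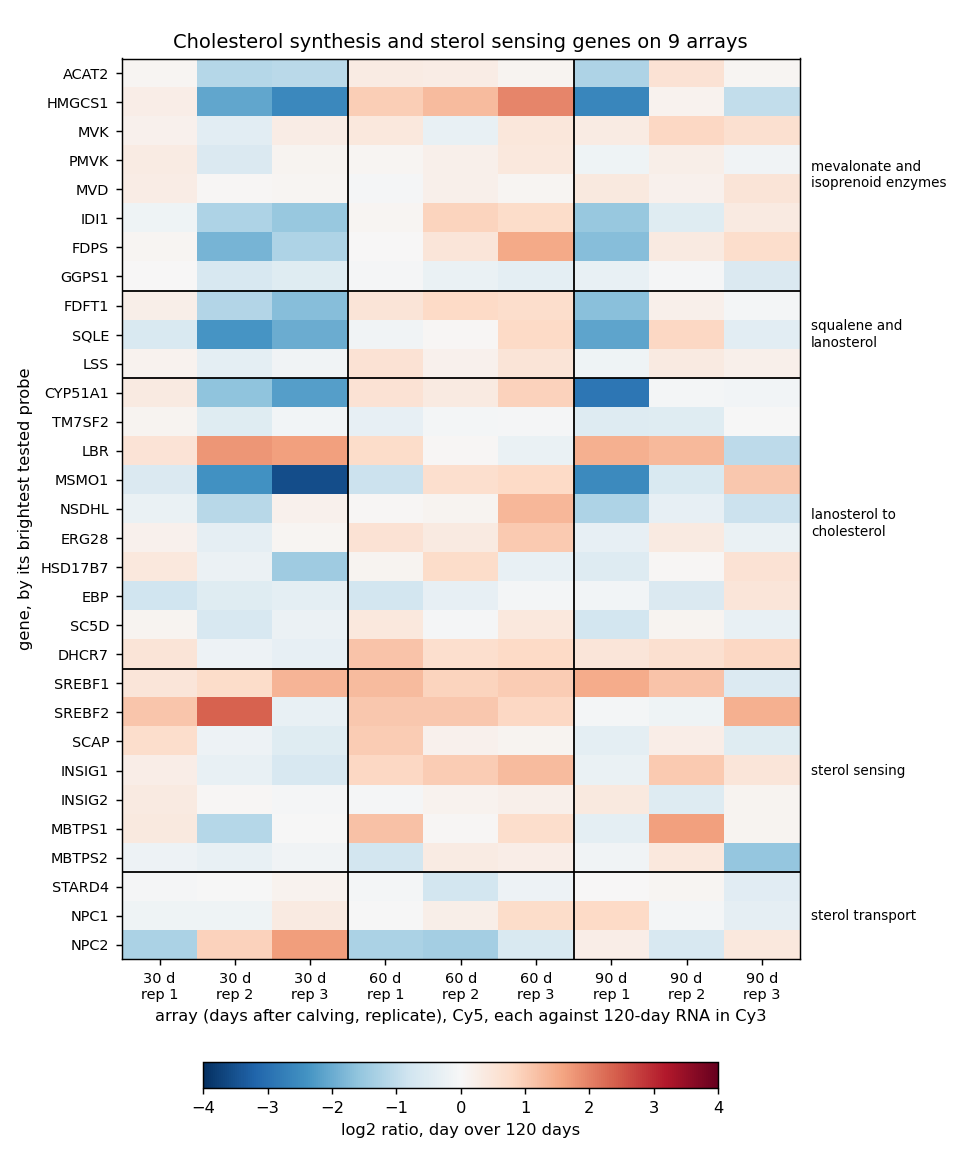
Log2 ratio of each of the 31 measured sterol genes (rows, in pathway order, by the brightest tested probe) on each of the 9 arrays (columns, by day and replicate), day over 120 days. Blue cells, lower than at 120 days, gather on replicates 2 and 3 of 30 days and replicate 1 of 90 days for HMGCS1, IDI1, FDPS, FDFT1, SQLE, CYP51A1 and MSMO1.

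The size of this pattern went with the brightness of the probe. For the 14 sterol genes with a mean brightness of 10 or more (mean of both channels, log2), the median log2 ratios were 0.15, -1.15 and -1.33 on the 30-day arrays, 0.23, 0.58 and 0.79 on the 60-day arrays, and -1.37, 0.09 and -0.01 on the 90-day arrays. For the 17 dimmer genes, the 30-day medians were 0.17, -0.36 and -0.11, the 60-day medians 0.09, 0.16 and 0.42, and the 90-day medians -0.17, 0.24 and -0.01. Both followed the same order of arrays at 60 days, and the dimmer genes moved over a smaller range. Over all genes, the median on each array lay between -0.04 and 0.00.

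**Figure D2:**
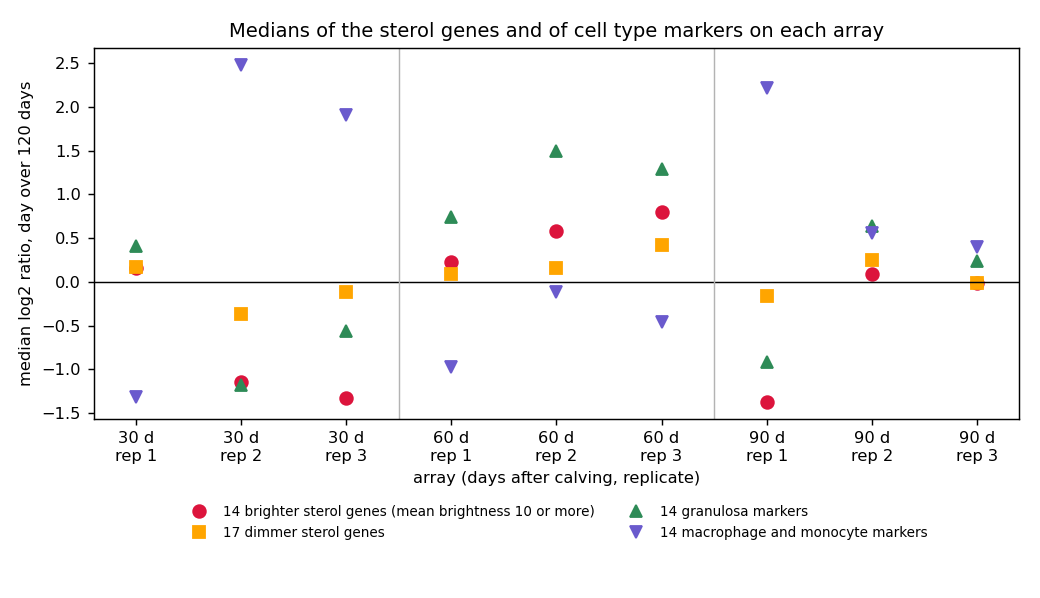
Median log2 ratio, day over 120 days, of the 14 brighter sterol genes (red), the 17 dimmer ones (orange), 14 granulosa markers (green) and 14 macrophage and monocyte markers (violet) on each of the 9 arrays. On replicates 2 and 3 of 30 days and replicate 1 of 90 days the brighter sterol genes stood at -1.15, -1.33 and -1.37 and the macrophage markers at 2.48, 1.91 and 2.21.

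At 60 days, 2 of the 31 sterol genes rose against 120 days, the late synthesis enzyme DHCR7 and the sterol sensor INSIG1, 0 fell and 29 did not pass (limma over all 9 arrays, Benjamini-Hochberg adjusted p under 0.05). That is 6.45% higher, against 6.12% higher among all 14229 genes tested, where 7.11% were lower and 13.2% passed in either direction. At an unadjusted p under 0.05, 5 sterol genes were higher and 0 lower, against 31.2% of all genes in either direction. The count of genes past the threshold is thus near that of the array as a whole. With the set of 120-day RNA as a block, 5 sterol genes passed: DHCR7, INSIG1, LSS, ERG28 and SCAP. The share of all genes that passed in that fit is not given here, so this count is not set against the array. The sets themselves were defined from the Cy3 levels of these arrays. The median log2 difference of the 31 genes was 0.26, with 25 above and 6 below 0, against a median of -0.05 over all genes. Ratios above 0 on all 3 arrays were found for 16 of 31 genes (51.6%), against 25.2% of all genes. Ratios below 0 on all 3 arrays were found for 5 (16.1%), against 32.4% of all genes. Cell type markers moved with 60 days as well. Of the 14 granulosa markers 3 rose (AMH, AMHR2 and ESR2). Of 15 measured lymphocyte markers 6 fell, with a median of -1.50, and of 9 measured epithelial markers 3 fell, with a median of -2.32. In the theca list LHCGR rose (1 of 8) and the other 7 did not pass. Of 6 measured oocyte markers ZP4 rose, by a dim probe (mean brightness 7.49), MOS fell and 4 did not pass. The macrophage, luteal and red blood cell lists had 0 genes past the threshold. The part of these cells in the sterol values was not tested.

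DHCR7, the reductase that turns 7-dehydrocholesterol into cholesterol, had log2 ratios of 1.13, 0.67 and 0.79 at 60 days. By its only probe (EMBV3_08548) it was 1.82-fold higher than at 120 days (log2 0.86 ± 0.17, SE, n = 3 arrays, limma adjusted p = 0.0201). Its normalised log2 levels were 9.64, 8.90 and 9.38 in the 60-day channel, against 8.51, 8.22 and 8.59 in the 120-day channel, so that the channels did not overlap. The last of these 120-day spots lay under background, on an array whose Cy3 threshold was the highest. On the 30-day arrays its ratios were 0.51, -0.19 and -0.33 (difference 0.00 ± 0.17, adjusted p = 0.994), and at 90 days 0.49, 0.65 and 0.82 (0.65 ± 0.17, adjusted p = 0.308). The ratios of 90 days were all above 0, as were those of 60 days.

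INSIG1, which retains SCAP in the endoplasmic reticulum and is itself an SREBP target, had log2 ratios of 0.82, 1.01 and 1.27 at 60 days. By its brightest probe (EMBV3_36644) it was 2.05-fold higher than at 120 days (log2 1.03 ± 0.25, adjusted p = 0.0377). A dimmer probe gave 1.13 ± 0.24 (adjusted p = 0.0261), and the dimmest 0.41 ± 0.18 (adjusted p = 0.160). INSIG1 levels were 10.59, 10.13 and 10.53 in the 60-day channel, against 9.77, 9.12 and 9.27 in the 120-day channel. The 30-day arrays gave 0.27, -0.30 and -0.63, and the 90-day arrays -0.25, 1.06 and 0.49, so that replicates of both days lay on either side of 0.

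Both calls depended on single arrays and on the processing. Without replicate 1 of 60 days neither gene passed (DHCR7 adjusted p = 0.112, INSIG1 0.122), nor without replicate 3 of 60 days (0.0874 and 0.166). INSIG1 also missed the threshold without replicate 2 of 60 days (0.102), replicate 2 of 30 days (0.0575) or replicate 3 of 30 days (0.0515), where DHCR7 passed. Fitted without the 3 arrays of high macrophage markers, the 60-day values stayed as they were, since all 3 arrays of that day were kept, and DHCR7 passed (adjusted p = 0.0496) while INSIG1 did not (0.0546). Neither passed without background correction (DHCR7 adjusted p = 0.0562, INSIG1 0.0702), with median pixel intensities (0.0725 and 0.0982) or with the replicate number as a block (0.0524 and 0.0914).

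INSIG2, the other INSIG gene, which is not switched on by SREBP in the same way, had ratios of -0.06, 0.15 and 0.21 at 60 days and a log2 difference of 0.10 ± 0.16 (adjusted p = 0.699). On the 30-day arrays it had 0.36, 0.04 and -0.06 (0.11 ± 0.16, adjusted p = 0.702) and on the 90-day arrays 0.40, -0.50 and 0.12 (0.01 ± 0.16, adjusted p = 0.992). Over the 9 arrays INSIG2 stayed between -0.50 and 0.40, against -0.63 to 1.27 for INSIG1.

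SREBF1, whose product drives fatty acid as well as sterol genes, was at 1.26, 0.89 and 1.00 on the 60-day arrays, or 2.07-fold (log2 1.05 ± 0.36, adjusted p = 0.0905). It did not follow the enzymes: its ratios were 0.50, 0.73 and 1.35 on the 30-day arrays (0.86 ± 0.36, adjusted p = 0.235) and 1.48, 1.14 and -0.54 on the 90-day arrays (0.69 ± 0.36, adjusted p = 0.497). Thus 8 of its 9 ratios lay above 0, and replicate 3 of 90 days alone lay below. Without that array SREBF1 passed at 60 days (adjusted p = 0.0161), where the log2 of 1.05 stayed as it was and only its error changed. It did not pass when any of the other 8 arrays was left out.

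SREBF2, the main regulator of sterol synthesis, gave different answers from its 2 bright probes. The brightest had ratios of 1.12, 2.36 and -0.31 on the 30-day arrays, 1.08, 1.09 and 0.82 on the 60-day arrays, and -0.07, -0.18 and 1.43 at 90 days. The next had 0.58, -0.69 and -0.04 on the 30-day arrays, 1.14, 1.11 and 1.28 on the 60-day arrays, and -1.40, 0.89 and -0.33 on the 90-day arrays. They gave similar values on the 60-day arrays (1.00 ± 0.49, adjusted p = 0.205, and 1.18 ± 0.40, adjusted p = 0.0880) and parted on replicate 2 of 30 days, where one read 2.36 and the other -0.69. Its dimmest probe gave -0.04 ± 0.07 at 60 days and did not pass either. SREBF2 is therefore uncertain at 60 days too, and more so at 30 and 90 days.

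SCAP, the escort of the SREBPs, stood at 1.01, 0.16 and 0.10 at 60 days, with a log2 difference of 0.42 ± 0.27 (adjusted p = 0.325). It passed with the 120-day RNA set as a block, a fit for which the share of all genes is not given. Its ratios were 0.71, -0.19 and -0.47 on the 30-day arrays (0.02 ± 0.27) and -0.40, 0.28 and -0.49 at 90 days (-0.20 ± 0.27), so that each of these days had replicates on both sides of 0. MBTPS1, the site-1 protease, had 1.16, 0.04 and 0.71 at 60 days and did not pass (0.64 ± 0.44). MBTPS2, the site-2 protease, read log2 levels of 13.72 in Cy5 and 14.45 in Cy3 on replicate 1 of 60 days, where its levels on the other 8 arrays lay between 7.22 and 9.33. That spot stood apart in both channels. Of the 7 sensing genes, 1 rose at 60 days (INSIG1), 0 fell and 6 did not pass, with a median of 0.64, where 6.12% of all genes were higher and 7.11% lower.

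**Figure D3:**
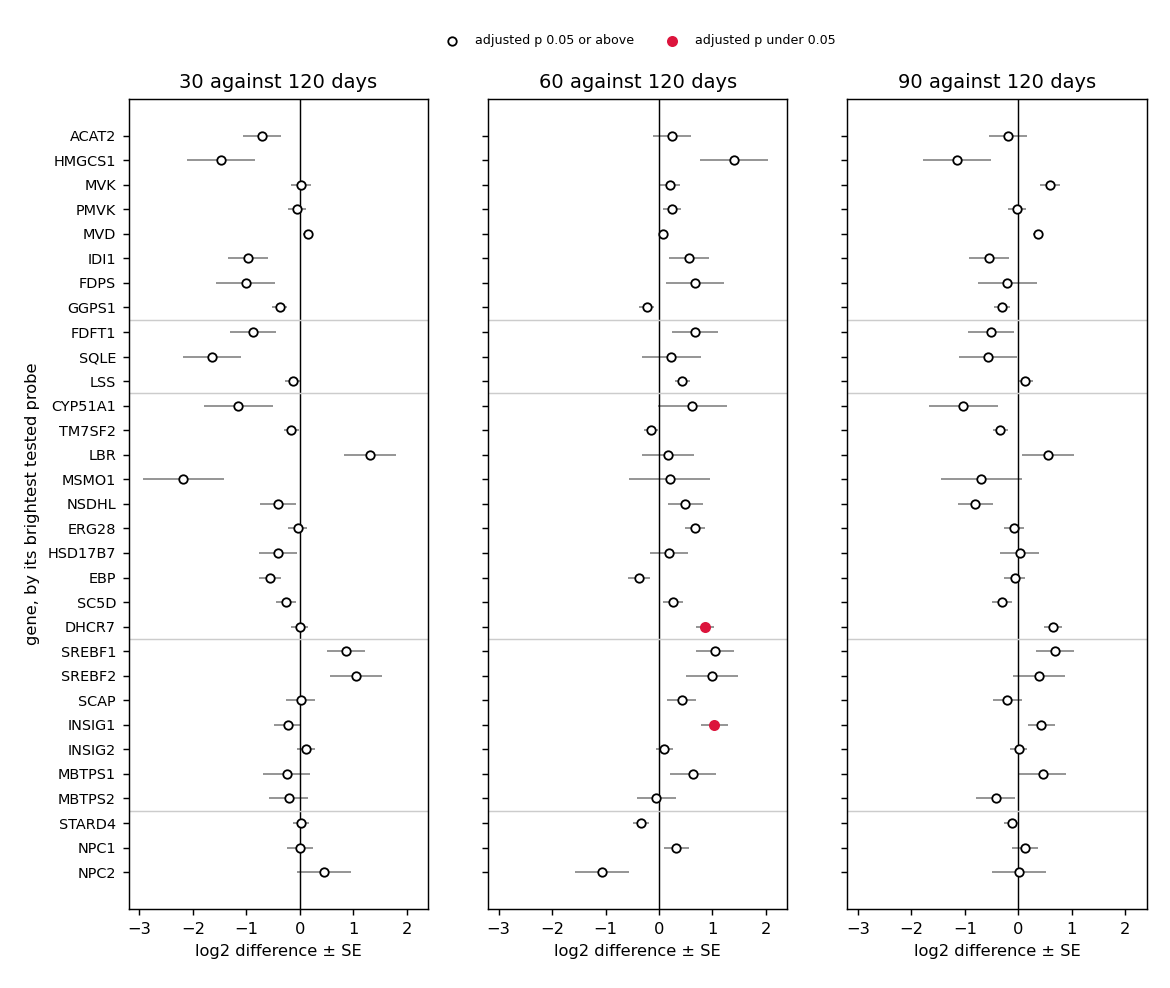
Log2 difference ± SE (limma, n = 3 arrays per day) of the 31 measured sterol genes at 30, 60 and 90 days against 120 days, in pathway order. Filled red points passed the adjusted p of 0.05: DHCR7 (0.86) and INSIG1 (1.03) at 60 days, and 0 genes at 30 or 90 days.

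Among the 8 enzymes from acetyl-CoA to the farnesyl and geranylgeranyl diphosphates, 0 passed at 60 days (limma, against 13.2% of all genes). HMGCS1 had the largest 60-day difference of all 31 genes, 2.65-fold (log2 1.40 ± 0.64, adjusted p = 0.175). Its levels were 13.92, 13.97 and 13.81 in the 60-day channel, against 12.93, 12.71 and 11.85 in the 120-day channel. The 60-day levels thus lay closer together than the 120-day levels. A dimmer HMGCS1 probe, with ratios of 1.37, 1.20 and 1.35, passed (1.31 ± 0.27, adjusted p = 0.0236), and another dim probe stood at 1.14 ± 0.40 (adjusted p = 0.0983). The dimmest gave -0.15 ± 0.07.

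IDI1, the isomerase of isopentenyl diphosphate, had ratios of 0.06, 0.88 and 0.75 at 60 days (0.57 ± 0.38, adjusted p = 0.334). Its 30-day ratios were -0.17, -1.25 and -1.50 and its 90-day ratios -1.50, -0.48 and 0.35, so that its lowest ratios were on the same 3 arrays as those of HMGCS1. The log2 differences of IDI1 were -0.97 ± 0.38 at 30 days (adjusted p = 0.216) and -0.54 ± 0.38 at 90 days (adjusted p = 0.596). MVK, mevalonate kinase, did not share these arrays: it had 0.18, -0.43 and 0.31 on the 30-day arrays, 0.43, -0.29 and 0.46 on the 60-day arrays, and 0.33, 0.82 and 0.63 at 90 days. ACAT2, the thiolase of the opening step, had 0.34, 0.28 and 0.12 on the 60-day arrays and -1.13, -1.07 and -1.24 on the 3 arrays of high macrophage markers. The other kinase and the decarboxylase of the mevalonate steps, PMVK and MVD, stayed between -0.56 and 0.52 on all arrays. FDPS, which makes farnesyl diphosphate, gave 0.01, 0.49 and 1.51 at 60 days, and GGPS1, which makes the geranylgeranyl diphosphate used to lipidate proteins, -0.05, -0.25 and -0.40.

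In the squalene and lanosterol steps, SQLE, squalene epoxidase, stood at -0.15, 0.06 and 0.78 at 60 days, with a log2 difference of 0.23 ± 0.55 (adjusted p = 0.795). Its sign turned with median pixel intensities (-0.08) and without replicate 3 of 60 days (-0.04), so no direction is given. On the 30-day arrays SQLE had -0.60, -2.34 and -1.99, all below 0, and on the 90-day arrays -2.11, 0.83 and -0.42 (-0.56 ± 0.55, adjusted p = 0.701). FDFT1, squalene synthase, and LSS, lanosterol synthase, had 60-day ratios above 0 on all 3 arrays, with differences of 0.67 ± 0.43 and 0.43 ± 0.14 (adjusted p = 0.314 and 0.0778). LSS passed with the 120-day RNA set as a block, a fit for which the share of all genes is not given.

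Of the 10 genes from lanosterol to cholesterol, 1 (DHCR7) rose at 60 days, 0 fell and 9 did not pass, where 13.2% of all genes passed in either direction. ERG28, a scaffold of the demethylation enzymes in yeast, had 0.59, 0.35 and 1.06 at 60 days (0.67 ± 0.18) and lay next to the threshold (adjusted p = 0.0508). With the 120-day RNA set as a block, where the share of all genes is not given, it passed. NSDHL, a dehydrogenase of that step, had 0.04, 0.10 and 1.34 at 60 days (0.49 ± 0.33, adjusted p = 0.337). Its dim second probe passed with a small value (0.23 ± 0.06, adjusted p = 0.0461). NSDHL stood at -0.28, -1.12 and 0.17 on the 30-day arrays and at -1.22, -0.31 and -0.87 at 90 days. The 90-day ratios were all below 0 (-0.80 ± 0.33, adjusted p = 0.421).

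CYP51A1, which removes the 14-methyl group of lanosterol, had ratios of 0.59, 0.36 and 0.91 at 60 days (0.62 ± 0.64, adjusted p = 0.532). It had 0.37, -1.62 and -2.20 on the 30-day arrays and -2.90, -0.08 and -0.11 at 90 days. MSMO1, the 4-methyl oxidase, had -0.86, 0.66 and 0.80 at 60 days (0.20 ± 0.76, adjusted p = 0.877), -0.58, -2.42 and -3.53 on the 30-day arrays, and -2.54, -0.62 and 1.07 at 90 days. The ratios of MSMO1 on the 30-day arrays were all below 0, and those of the other days lay on both sides.

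EBP, the sterol isomerase, had 60-day ratios below 0 on all 3 arrays, with -0.73, -0.31 and -0.08 (-0.37 ± 0.20, adjusted p = 0.246). On the 30-day arrays EBP had -0.79, -0.48 and -0.38 (-0.55 ± 0.20, adjusted p = 0.209), also all below 0, and on the 90-day arrays -0.11, -0.58 and 0.48. LBR, a sterol reductase that also sits in the nuclear envelope and is needed for the lobed nuclei of granulocytes, had 0.73, 0.04 and -0.28 at 60 days (0.16 ± 0.49). LBR had 0.54, 1.76 and 1.64 on the 30-day arrays and 1.41, 1.28 and -1.04 on the 90-day arrays. Its highest ratios were those of replicates 2 and 3 of 30 days and replicate 1 of 90 days, the arrays of high macrophage markers. The other enzymes of these steps, TM7SF2 and SC5D (reductase and desaturase) and HSD17B7 (a ketoreductase), stayed between -1.41 and 0.73 on all arrays.

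For sterol transport, 0 of 3 measured genes passed at 60 days (limma, against 13.2% of all genes). NPC2, the soluble cholesterol carrier of the lysosome, had the lowest value of the 31 genes, with -1.27, -1.34 and -0.62 (log2 -1.08 ± 0.50, adjusted p = 0.187). Levels of NPC2 were 10.62, 11.03 and 10.94 in the 60-day channel, against 11.89, 12.38 and 11.56 in the 120-day channel. At 30 days it had -1.25, 0.92 and 1.66 and at 90 days 0.27, -0.65 and 0.42, so that replicates of both days lay on either side of 0. Without replicate 1 of 30 days NPC2 passed at 60 days (adjusted p = 0.0491), where the log2 of -1.08 stayed as it was and only its error changed. It did not pass when any of the other 8 arrays was left out.

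NPC1, the membrane protein that takes cholesterol over from NPC2, had -0.01, 0.24 and 0.74 at 60 days (0.32 ± 0.24, adjusted p = 0.380). It stood at -0.17, -0.17 and 0.36 on the 30-day arrays and at 0.81, -0.09 and -0.34 at 90 days, with differences of 0.01 ± 0.24 and 0.13 ± 0.24. The replicates of each of these days lay on both sides of 0. STARD4, a cytosolic sterol carrier, had -0.08, -0.72 and -0.20 at 60 days (-0.34 ± 0.14, adjusted p = 0.156). STARD4 lay above background in Cy5 on 5 of 9 arrays, which limits what its ratios can show, and its values were -0.04, -0.01 and 0.13 on the 30-day arrays and 0.03, 0.07 and -0.46 at 90 days.

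At 30 days, 0 of 31 sterol genes passed (limma, adjusted p under 0.05, against 0.288% of all genes). At an unadjusted p under 0.05, 2 were higher and 5 lower, against 21% of all genes in either direction. The median log2 difference was -0.21, with 10 genes above and 21 below 0, against -0.01 over all genes. Ratios above 0 on all 3 arrays were found for 3 genes (against 20.1% of all genes) and below 0 for 5 (against 27.1%). The lowest were MSMO1 (-2.18 ± 0.76, adjusted p = 0.198), SQLE (-1.65 ± 0.55, adjusted p = 0.188) and HMGCS1 (-1.47 ± 0.64, adjusted p = 0.246). The highest were LBR (1.31 ± 0.49, adjusted p = 0.210), SREBF2 (1.06 ± 0.49, adjusted p = 0.264) and SREBF1 (0.86 ± 0.36, adjusted p = 0.235), while the other bright probe of SREBF2 gave -0.05 ± 0.40.

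The low means rest on replicates 2 and 3. On replicate 1 of 30 days 22 of 31 genes had a ratio above 0, with a median of 0.17. On replicates 2 and 3 it was 6 and 10 genes, with medians of -0.43 and -0.24. Replicate 1 of 30 days had 29.8% of all probes above background in Cy5, against 61.7% to 82.3% on the other arrays. With replicate 1 alone kept from that day, as in the fit without the arrays of high macrophage markers, HMGCS1 stood at 0.26, while MSMO1 and SQLE stayed below 0 at -0.58 and -0.60. Without replicate 2 alone the median was 0.00.

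At 90 days, again 0 of 31 passed (limma, against 0.00703% of all genes), with 3 higher and 2 lower at an unadjusted p under 0.05, against 11.5% of all genes. The median was -0.08, with 13 genes above and 18 below 0. Ratios above 0 on all 3 arrays were found for 3 genes (against 15.6% of all genes) and below 0 for 4 (against 17.6%). HMGCS1 (-1.14 ± 0.64, adjusted p = 0.521), CYP51A1 (-1.03 ± 0.64, adjusted p = 0.559) and NSDHL (-0.80 ± 0.33) were lowest. SREBF1 (0.69 ± 0.36), DHCR7 (0.65 ± 0.17) and MVK (0.59 ± 0.19, adjusted p = 0.357) were highest. Without replicate 1 of that day, HMGCS1 stood at -0.41, CYP51A1 at -0.09 and the median at 0.05.

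The channel levels show on which side the replicates parted. In Cy5, HMGCS1 read 13.18, 10.26 and 9.43 on the 30-day arrays, 13.92, 13.97 and 13.81 on the 60-day arrays, and 9.88, 13.21 and 11.04 on the 90-day arrays, against 11.85 to 13.06 in the 120-day channel. MSMO1 read 13.65, 10.06 and 8.97 on the 30-day arrays, 13.48, 13.43 and 13.24 on the 60-day arrays, and 10.17, 13.59 and 13.48 on the 90-day arrays, against 12.41 to 14.34 in Cy3. On replicate 1 of 30 days MSMO1 was above its 60-day levels and HMGCS1 below them. On replicates 2 and 3 of 30 days both genes were lower than on any array of the 120-day channel. The ratio of MSMO1 below 0 on replicate 1 of 60 days came with a 120-day level of 14.34, where the 120-day levels of replicates 2 and 3 were 12.77 and 12.44.

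**Figure D4:**
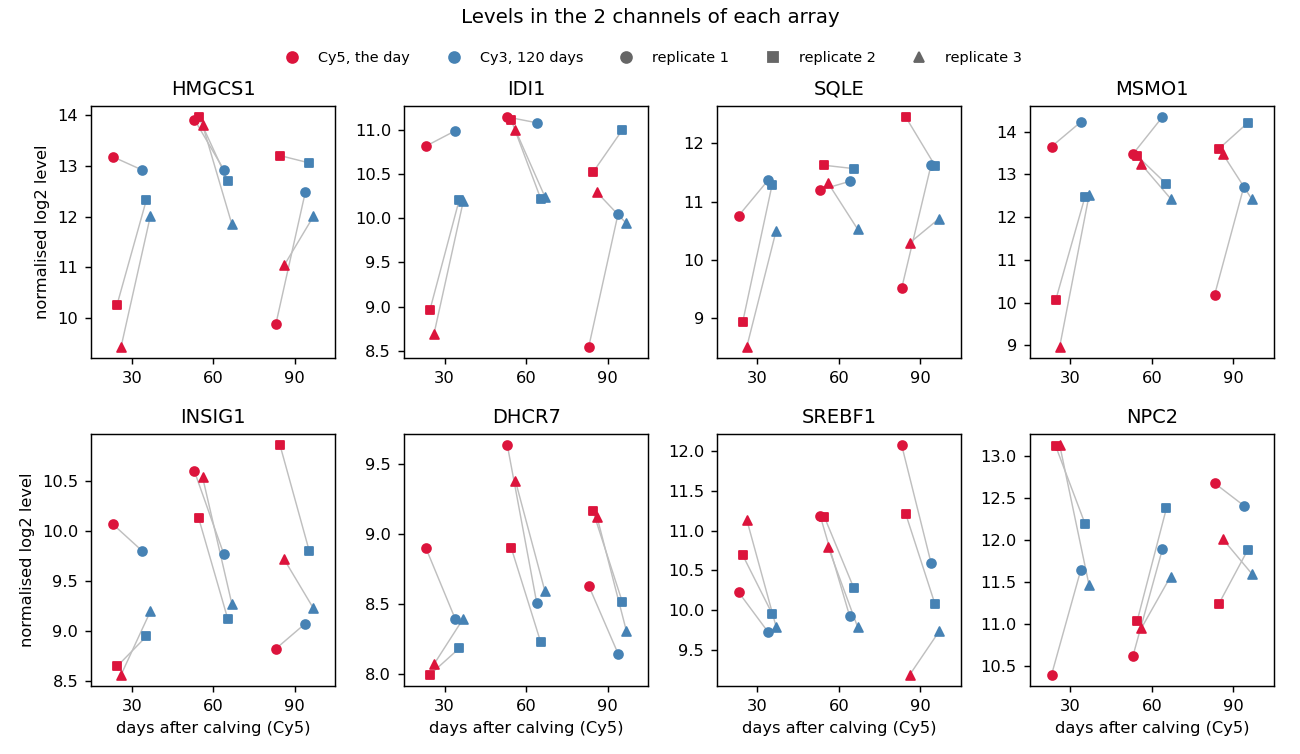
Normalised log2 level of 8 sterol genes in Cy5 (the day, red, left) and Cy3 (120 days, blue, right) of each array, with lines joining the channels of one array and symbols for replicates. HMGCS1 spans 9.43 to 13.97 in Cy5 and 11.85 to 13.06 in Cy3.

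The replicates of 60 days lay closest together. Of the 31 sterol genes, 22 had their lowest SD of log2 ratios on the 60-day arrays, 5 on the 30-day and 4 on the 90-day arrays. Over all genes these shares were 33.8% at 30 days, 38.9% at 60 days and 27.3% at 90 days. The median SD of the sterol genes was 0.46 at 30 days, 0.34 at 60 days and 0.58 at 90 days, against 0.26, 0.23 and 0.29 over all genes. The widest gene of the 30-day arrays was HMGCS1 (SD 1.52), and that of the 90-day arrays MSMO1 (SD 1.81).

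Setting the days against each other removes the 120-day level and a constant dye effect. Between 60 and 30 days, 0 of 31 sterol genes and 0% of all genes passed (limma, lowest adjusted p over all probes 0.340). At an unadjusted p under 0.05, 8 sterol genes were higher at 60 days and 0 lower, against 11.8% of all genes in either direction. The median difference was 0.52, against -0.03 over all genes. HMGCS1 was at 2.87 ± 0.90 (adjusted p = 0.347), SQLE at 1.88 ± 0.77, IDI1 at 1.54 ± 0.53, INSIG1 at 1.26 ± 0.36 and DHCR7 at 0.87 ± 0.23 (adjusted p = 0.346). The 60-day ratios lay above all 30-day ratios for 9 of 31 genes (29.0%), against 9.17% of all genes, and below them for 1, against 10.3%.

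Within the sets of a shared 120-day RNA, 17 of 31 sterol genes (54.8%) were higher at 60 than at 30 days in all 3 sets, against 20.3% of all genes, and STARD4 and NPC2 (2 genes) were lower in all 3, against 22.9% of all genes. The median difference was 0.22 in set A, 0.63 in set B and 0.67 in set C. For HMGCS1 it was 0.73, 3.33 and 4.55 in sets A, B and C, for IDI1 0.24, 2.13 and 2.25, and for INSIG1 0.56, 1.31 and 1.90. The size thus differed between set A, whose 30-day array is replicate 1, and the other sets, whose 30-day arrays are those of high macrophage markers. Replicate 1 of 30 days also had the lowest share of probes above background in Cy5 (29.8%). DHCR7 varied less, with 0.62, 0.86 and 1.11. Fitted without the arrays of high macrophage markers, the median of 60 against 30 days was 0.23.

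**Figure D5:**
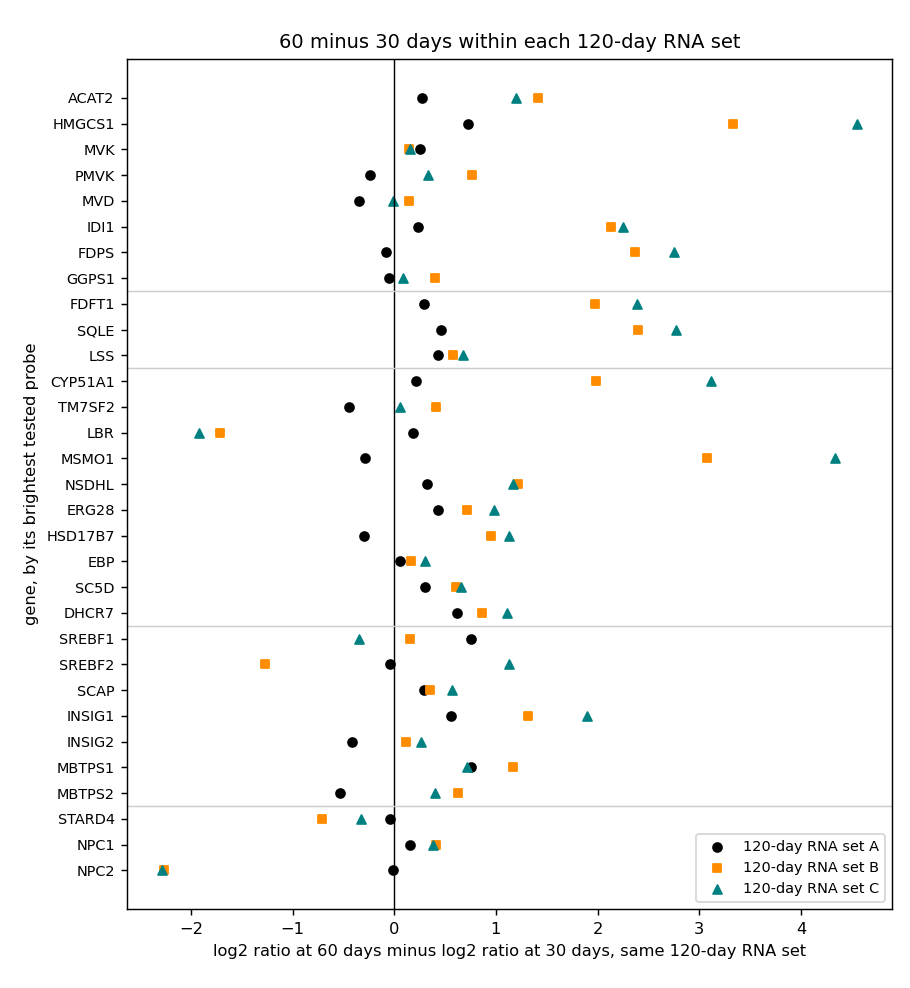
Log2 ratio at 60 days minus that at 30 days for each of the 31 measured sterol genes, within the arrays taken to share a 120-day RNA (set A circles, set B squares, set C triangles). HMGCS1 lies at 0.73 in set A, 3.33 in set B and 4.55 in set C, while NPC2 lies at -0.01, -2.27 and -2.28.

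Between 90 and 60 days, 0 of 31 passed (limma, against 0% of all genes), with 1 higher and 3 lower at an unadjusted p under 0.05 (against 10.2% of all genes) and a median of -0.36. The median was -0.15 without replicate 1 of 90 days and -0.58 without replicate 2 of that day. All 90-day ratios lay below all 60-day ratios for 5 genes (16.1%), against 6.44% of all genes, and above them for 0, against 10.5%. HMGCS1 stood at -2.54 ± 0.90 (adjusted p = 0.466), and within sets A, B and C at -0.84, -3.86 and -2.93. In set C, the 90-day array had a macrophage median of 0.40. In all 3 sets, 10 genes were lower at 90 than at 60 days (against 16.2% of all genes) and 4 higher (against 23%). Between 90 and 30 days, 0 of 31 passed (against 0% of all genes), 1 was higher and 0 lower at an unadjusted p under 0.05 (against 5.76% of all genes), and the median was 0.12. It turned to -0.13 without the arrays of high macrophage markers and lay between 0.01 (without replicate 2 of 90 days) and 0.30 (without replicate 1 of 30 days) when leaving out 1 array. The 90-day ratios lay above all 30-day ratios for 1 gene, against 6.93% of all genes, and below them for 0, against 5.14%. An F test of any difference among the 3 days called 0 of 31 (against 0% of all genes, lowest adjusted p of a sterol gene 0.482), with 4 at an unadjusted p under 0.05 (against 9.84%).

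The 120-day channel itself differed between the sets. The sets were defined from these levels, so that a difference between them is no test. In 23 of the 31 sterol genes (74.2%, against 51.6% of all genes) the means of sets A, B and C spanned more than 2 times the highest SD within a set, with a median span of 0.65 and a median of the highest SD of 0.15. MSMO1 had 120-day levels of 14.26 in set A, 12.65 in set B and 12.45 in set C. HMGCS1 had 12.97, 12.51 and 11.96, FDPS 13.22, 13.35 and 12.00, and INSIG1 9.79, 9.05 and 9.23. Set C was the lowest of the 3 for HMGCS1, FDPS, FDFT1, SQLE, CYP51A1 and MSMO1. A high 60-day ratio on replicate 3 (1.96 for HMGCS1, 1.51 for FDPS) therefore came with a low 120-day level.

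Where a gene had several tested probes (14 genes), they shared the sign of the difference at 60 days in 7 and disagreed in 7. In the 7 that disagreed, the probe of the other sign was dimmer than the brightest. Its log2 value was small, between -0.18 (MSMO1) and 0.24 (TM7SF2). For MSMO1 the ratios on replicates 2 and 3 of 30 days were -2.42 and -3.53 by the brightest probe and -1.98 and -2.31 by the next, but 0.55 and 0.05 by the dimmest. By probes, 5 of 55 rose at 60 days and 0 fell, against 7.48% higher and 6.81% lower among all probes: those of DHCR7 and HMGCS1, 2 of INSIG1 and the dim one of NSDHL.

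Other genes of sterol handling were counted in 3 lists at 60 days, where 13.2% of all genes passed, so that 1 gene in each list is near the share of the array. Of 16 genes of sterol synthesis, uptake and its control 7 were measured, RNF139, a ubiquitin ligase of the endoplasmic reticulum that acts on the sterol pathway, fell (log2 -0.57 ± 0.12, adjusted p = 0.0267) and 6 did not pass. Of 15 genes of oxysterol receptors, efflux and esterification 13 were measured, and MYLIP, a ubiquitin ligase switched on by oxysterol receptors, fell (-1.23 ± 0.29, adjusted p = 0.0349), with ratios of -1.29, -1.16 and -1.23. Of 13 genes of the isoprenoid branch 12 were measured, and DHDDS, which makes dolichol precursors, rose (0.63 ± 0.08, adjusted p = 0.00906). The rest of these lists did not pass, nor did any listed gene at 30 or 90 days (0 in each list).

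Of the genes that bring cholesterol into the cell or into steroid synthesis, SCARB1, the receptor for high-density lipoprotein, stood at 0.58 ± 0.48 at 60 days (adjusted p = 0.434). ABCA1, the exporter, stood at -0.06 ± 0.11 by a dim probe (mean brightness 7.80), which limits what its ratios can show. STAR, which carries cholesterol into the mitochondrion, had ratios of -3.96, -1.04 and -0.15 at 60 days. All 9 ratios of STAR lay below 0, between -3.96 and -0.15, and its differences of -1.50, -1.71 and -2.00 at 30, 60 and 90 days did not pass (SE 0.70 each).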

How the data were processed

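Per the file headers, the deposited scanner files hold mean and median pixel intensities of each spot and its surround in Cy5 and Cy3, with no background subtracted and no normalisation by the authors. The deposited series table holds log2 values, whose making no source used here describes. None of its 9 columns (0) matched best the ratio of the array it is named for, and it served no result.

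From the mean intensities, background was corrected by normexp (offset 50) and ratios were loess-normalised array by array in limma 3.58.1 (R 4.3.3), control spots having weight 0. Figures were drawn with matplotlib 3.10.9. Levels per channel were taken after a further Aquantile step. A probe was tested where either channel lay over 2 SD above the mean of 153 negative controls on 3 or more arrays. The 199 probes with an ignored spot were left out. Gene symbols came from the platform annotation, with older names matched through RefSeq (assembly ARS-UCD2.0). No coordinates or sequences were used. Each gene was represented by its brightest tested probe.

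One limma model covered the 9 arrays with 1 coefficient per day (6 residual and 1.35 prior degrees of freedom) and Benjamini-Hochberg adjustment over 38644 probes. Errors are its standard errors. The number of arrays, 3 per day, limits the precision. In data simulated for 60 against 120 days over 38644 probes, 100 probes were changed at each size. The model recovered 66% of log2 changes of 1 and 83% of changes of 2, with 16 false calls. In the measured data 7.48% of probes passed as higher and 6.81% as lower at 60 days. The simulated shares need not carry over to them.

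Full values are given for genes past the threshold, for the 3 highest and 3 lowest at each day and for 10 genes always shown (INSIG1, INSIG2, SREBF1, SREBF2, SCAP, HMGCS1, SQLE, IDI1, DHCR7 and NPC1). Other sterol genes are given by range or in part. The genes, lists, tests and alternatives were chosen with earlier results of these data known. Alternatives were other background, scaling, pixel and filter settings, blocks, other eBayes settings, averaged probes and arrays left out.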

Additional observations from a re-analysis of the deposited data

How the results depend on the processing

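The median of the sterol genes at 60 days kept its direction in all settings run, between 0.24 and 0.54, and between 0.25 and 0.41 when leaving out 1 array. Blocks, other eBayes settings, the Aquantile step and leaving out arrays of 30 or 90 days cannot change this median, which stayed at 0.26. Only the background, centring, pixel, filter and averaging settings and leaving out a 60-day array could move it. Median centring in place of loess gave the 0.54. Beside the 2 sterol genes past the threshold at 60 days, 0 passed without background correction, with median pixel intensities and with only the arrays compared. The count was 1 with median centring and without the arrays of high macrophage markers, 5 (LSS, ERG28, DHCR7, SCAP and INSIG1) with the 120-day RNA set as a block, and 0 to 3 when leaving out 1 array. The share of all genes that passed with the 120-day RNA set as a block is not given here. Without the arrays of high macrophage markers the median was 0.167 at 30 days and 0.232 for 60 against 30 days, and HMGCS1 at 30 days turned to 0.261. At 30 days these values rest on replicate 1 alone, with 29.8% of probes above background in Cy5. SQLE at 60 days turned to -0.0841 with median pixel intensities and to -0.0450 without replicate 3 of that day (up to 0.420 when leaving out other arrays). With the replicate number as a block, 0 sterol genes passed at 60 days (adjusted p of DHCR7 0.0524, of INSIG1 0.0914). Deviations of same-numbered arrays correlated at -0.69 to 0.51, and 4 of 9 such pairs were over 0.1. As 4 of 9 arrays correlated best with their own number, the numbers do not pair the arrays. Deviations of arrays that share a 120-day RNA correlated at 0.19 to 0.58, apart from -0.30 between the 30-day and 90-day arrays of set C. The main model holds no term for these sets. The median at 90 days lay between -0.22 and 0.05 when leaving out 1 array. At 30 and 90 days and between days the count was 0 in all settings run. The median of all genes lay within 0.07 of 0 in every setting. At 30 days 46.8% of the probes past the threshold were higher, but 13.3% with median centring. A slide or scan block was not run because the headers name none, nor was the authors' value table. The causes were not tested. Dim probes, among them those of STARD4, LSS and NPC1, are limited by their signal over background.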

Other observations

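The columns of the authors' value table were set against the channels of the arrays over 8297 probes above background in every channel. Each column matched best a difference of 2 channels, with r of 0.937 to 0.972, while r with the ratio of the array it is named for ran from -0.847 to 0.731. In 5 columns the 2 channels were those of 1 array, another than the one named, and in 4 they came from 2 arrays.

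Of the sterol genes, MBTPS2 had a spot on replicate 1 of 60 days with mean intensities of 14412 in Cy5 and 22356 in Cy3, where the other 8 arrays read 270.2 to 620.8 in Cy5 and 503.6 to 865.2 in Cy3. Its ratio there was -0.73, against 0.33 and 0.26 on the other 60-day arrays.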
